A study of Mus musculus with 22 samples.

Results

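The genes described here encode the proteoglycans of the brain's extracellular matrix and the proteins that tie them into perineuronal nets. The 10 members were taken by name, as the rows of the deposited count table whose Ensembl identifiers carry the symbols Acan, Bcan, Ncan, Vcan, Hapln1, Hapln2, Hapln4, Tnr, Tnc and Ptprz1 in the mouse GENCODE annotation, out of 21995 genes in the table. The study prepared an RNA-seq library from the whole spinal cord of each mouse, to ask which transcripts change in normal aging and which change in a mouse model of amyotrophic lateral sclerosis (ALS). The young group held 8 wild-type C57BL/6 males of 3 to 4 months and the old group held 8 wild-type C57BL/6 males of 18 to 24 months, with libraries from the Roche KAPA kit. The ALS comparison set 3 C57BL/6 mice of the genotype labelled G93a against 3 wild-type C57BL/6 mice, called controls below, all of 5 to 6 months, with both sexes in each group and with libraries from the Illumina TruSeq kit. No group received a treatment. In the symptomatic SOD1 G93A mice, a high-copy transgene of mutant human SOD1 is active in many cell types and not in motor neurons alone. Kit and experiment coincide, so their effects cannot be told apart.

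Perineuronal nets are dense coats of matrix around the cell body and proximal dendrites of certain neurons, among them spinal motor neurons and fast-spiking interneurons. Their backbone is the sugar polymer hyaluronan. Proteoglycans of the lectican family, which carry chains of chondroitin sulfate, bind hyaluronan at one end and the cross-linking protein tenascin-R at the other, and small link proteins lock the lecticans onto hyaluronan. The same families also build the looser matrix between glia and the matrix at nodes of Ranvier, and glial scars are rich in chondroitin sulfate proteoglycans.

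In the count table, the young libraries held between 5078092 and 9358055 counts and the old libraries between 5664869 and 9145600. The control libraries held between 10693060 and 13219797 and the SOD1 G93A libraries between 9675610 and 11872431. A level of 3 counts, taken as the floor, equals 0.227 to 0.591 CPM depending on the library (counts per 10 to the power 6 counts of the library total). This bound covers counting error only. The CPM of genes given below are also scaled between libraries by edgeR's TMM factors, and the floor is not. The lowest count of any member was 21, for Tnc in an aging library, so every member stood above that floor in every library. Libraries are numbered here in column order within their group, since the columns carry no replicate numbers.

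Before the members are described, 2 libraries need to be set apart. Old library 6 lay at 1.6 on the first principal component of the aging comparison, where the other old libraries lay between 16.9 and 26.2 and the young libraries between -23.4 and -15.7. Mitochondrially encoded transcripts took 13.2% of its counts, against at most 9.18% in the other old libraries. SOD1 G93A library 2 lay at 22.8 on the first component of the ALS comparison, where the other SOD1 G93A libraries lay at 54.1 and 62.8 and the controls between -50.2 and -42.6. The mitochondrial share was 8.16%, 7.71% and 7.39% in the controls and 5.61%, 6.08% and 5.34% in SOD1 G93A libraries 1, 2 and 3, without overlap. Its relation to the members' changes was not tested. Members' calls and list counts that change when these libraries are left out are given both ways. The tissue label was checked against markers. Snap25 of neurons was present at 1120 ± 50.5 FPKM (fragments per kilobase of transcript and per 10 to the power 6 fragments, mean ± SD, n = 8) in young mice, Mbp of myelin at 7420 ± 742 FPKM and Aldoc of astrocytes at 1240 ± 58.7 FPKM. The summed level of 5 skeletal muscle markers was at most 3.35 FPKM in any library.

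All 10 members lie on autosomes, and each lectican gene has a link protein gene as its neighbour. On GRCm38, Acan (ENSMUSG00000030607) spans chr7:79053483-79115099 on the plus strand, 2 bases from Hapln3. Bcan (ENSMUSG00000004892) at chr3:87987531-88000230 and Hapln2 (ENSMUSG00000004894) at chr3:88021750-88027583 lie 21519 bases apart on the minus strand. Ncan (ENSMUSG00000002341) on the minus strand at chr8:70093085-70120873 lies 2222 bases from Hapln4 (ENSMUSG00000007594) on the plus strand at chr8:70083457-70090862. These pairs share a neighbourhood and not a strand in every case. Vcan (ENSMUSG00000021614) on the minus strand at chr13:89655312-89742509 lies 43659 bases from Hapln1 (ENSMUSG00000021613) on the plus strand at chr13:89539796-89611652. The remaining members stand alone, with Tnr (ENSMUSG00000015829) at chr1:159523769-159931729 and Ptprz1 (ENSMUSG00000068748) at chr6:22875502-23052916 on the plus strand and Tnc (ENSMUSG00000028364) at chr4:63959785-64047015 on the minus strand. Exons of Tnr overlap the antisense gene Gm38039, and exons of Tnc overlap the opposite-strand transcript 8030451A03Rik. Use of strand in the counting is not given in the sources used here, so reads of these overlapping partners cannot be told apart.

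RefSeq promoter windows on GRCm38.p6, from 250 bases before to 50 bases after a gene's start, were found for 9 of the 10 members, the exception being Hapln4. The windows of Acan and Hapln1, which fell most in SOD1 G93A mice, are printed with those of Vcan and Tnc, which rose there, so that the neighbours Vcan and Hapln1 can be seen side by side. They lie at chr7:79052976-79053275 on the plus strand, chr13:89540386-89540685 on the plus strand, chr13:89742463-89742762 on the minus strand and chr4:64046966-64047265 on the minus strand, and are given 5′ to 3′ on the gene's strand with motif matches in capitals.
Acan: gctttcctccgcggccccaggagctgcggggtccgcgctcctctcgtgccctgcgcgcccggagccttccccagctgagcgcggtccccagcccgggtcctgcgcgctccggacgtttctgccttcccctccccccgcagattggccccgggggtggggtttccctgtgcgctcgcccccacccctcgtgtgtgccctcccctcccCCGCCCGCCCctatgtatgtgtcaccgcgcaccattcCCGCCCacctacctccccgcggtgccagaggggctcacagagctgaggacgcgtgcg
Hapln1: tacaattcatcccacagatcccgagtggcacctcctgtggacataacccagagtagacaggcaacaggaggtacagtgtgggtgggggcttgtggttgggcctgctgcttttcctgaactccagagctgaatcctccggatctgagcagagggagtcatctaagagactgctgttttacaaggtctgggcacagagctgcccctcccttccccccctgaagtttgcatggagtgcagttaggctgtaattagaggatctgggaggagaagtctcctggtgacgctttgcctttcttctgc
Vcan: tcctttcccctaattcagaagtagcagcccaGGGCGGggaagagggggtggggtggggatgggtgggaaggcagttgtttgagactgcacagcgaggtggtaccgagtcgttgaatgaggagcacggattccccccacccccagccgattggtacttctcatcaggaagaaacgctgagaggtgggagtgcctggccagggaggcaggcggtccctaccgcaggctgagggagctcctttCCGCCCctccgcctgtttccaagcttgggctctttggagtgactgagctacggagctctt
Tnc: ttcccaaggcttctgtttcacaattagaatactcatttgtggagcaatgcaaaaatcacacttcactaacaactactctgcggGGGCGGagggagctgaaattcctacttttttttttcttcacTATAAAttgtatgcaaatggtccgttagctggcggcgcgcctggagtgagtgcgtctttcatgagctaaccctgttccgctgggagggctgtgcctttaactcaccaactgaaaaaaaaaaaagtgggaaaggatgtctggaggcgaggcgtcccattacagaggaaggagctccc
The motifs searched on both strands were the TATA box TATAAA, the GC box GGGCGG, the AP-1 motif TGANTCA and the STAT motif TTCNNNGAA. The Acan window holds 3 GC boxes, of which 2 overlap, and its base composition is 74% G and C. The Vcan window holds 2 GC boxes. The Tnc window holds 1 GC box and 1 TATA box, the latter 126 bases before the start, and its G and C content is 47.3%. In the Hapln1 window no match to these motifs was found. The RefSeq start lies 840 bases from the start in GENCODE for Hapln1, 257 bases for Acan and 3 bases for Vcan. RefSeq has 2 windows for Tnc, and the one at the GENCODE start is shown. Among all 32851 windows of this length, 35.7% hold the GC box, 13.6% the TATA box, 7.81% the AP-1 motif and 8.3% the STAT motif. These matches describe letters and not binding.

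Levels of different genes were compared per transcript length, as FPKM. In young mice, brevican (Bcan), the lectican made mainly by astrocytes and oligodendrocyte lineage cells, was the most abundant member at 122 ± 6.98 FPKM (mean ± SD, n = 8). The link proteins Hapln4 at 64 ± 2.96 FPKM and Hapln2 at 59.6 ± 7.12 FPKM followed, and their ranges overlapped. Ptprz1 stood next at 29.3 ± 2.32 FPKM, and its FPKM range did not meet those of its neighbours. Below it were Ncan at 14.1 ± 1.21 FPKM and Tnr at 11.6 ± 1.19 FPKM, whose ranges overlapped, then Acan at 7.28 ± 0.752 FPKM. Vcan at 5.19 ± 0.831 FPKM and Hapln1 at 4.06 ± 0.355 FPKM were not separated from each other, and Tnc was lowest at 1 ± 0.279 FPKM. The order by mean FPKM was identical in old mice, although there each neighbour from Ncan down to Hapln1 overlapped the next. Part of this order depends on the length used. By CPM per kilobase of annotated exon, young mice had Ncan at 15 and Ptprz1 at 14.3, and Vcan, at 2.12, stood below Hapln1, at 3.7.

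In the control mice of the ALS experiment the FPKM order was Bcan, Hapln2, Hapln4, Ptprz1, Tnr, Ncan, Vcan, Acan, Hapln1 and Tnc, with Tnr and Ncan overlapping, as did Vcan with Acan and Acan with Hapln1. By CPM per kilobase of exon, the controls had Hapln1 at 4.78 above Acan at 4.43 and Vcan at 2.87. Hapln2 stood at 101 ± 12.7 FPKM (n = 3) in these controls. Kit, sex and age differ between the experiments and cannot be told apart as sources of that level. In SOD1 G93A mice the lower part of the order was rearranged. Vcan, at 14.7 ± 2.72 FPKM (n = 3), stood by FPKM beside Tnr at 12.5 ± 0.246 FPKM, and their ranges overlapped. So did those of Bcan and Hapln2 and of Hapln4 and Ptprz1 further up. Acan at 2.79 ± 0.702 FPKM, Tnc at 2.75 ± 0.859 FPKM and Hapln1 at 2.41 ± 0.982 FPKM overlapped at the bottom. By CPM per kilobase of exon the order in SOD1 G93A mice was another, with Hapln2 at 70.3 above Bcan at 63.3, Tnr at 12 and Ncan at 9.04 above Vcan at 4.52, and Tnc at 2.55 above Hapln1 at 2.13 and Acan at 1.73.

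**Figure D1:**
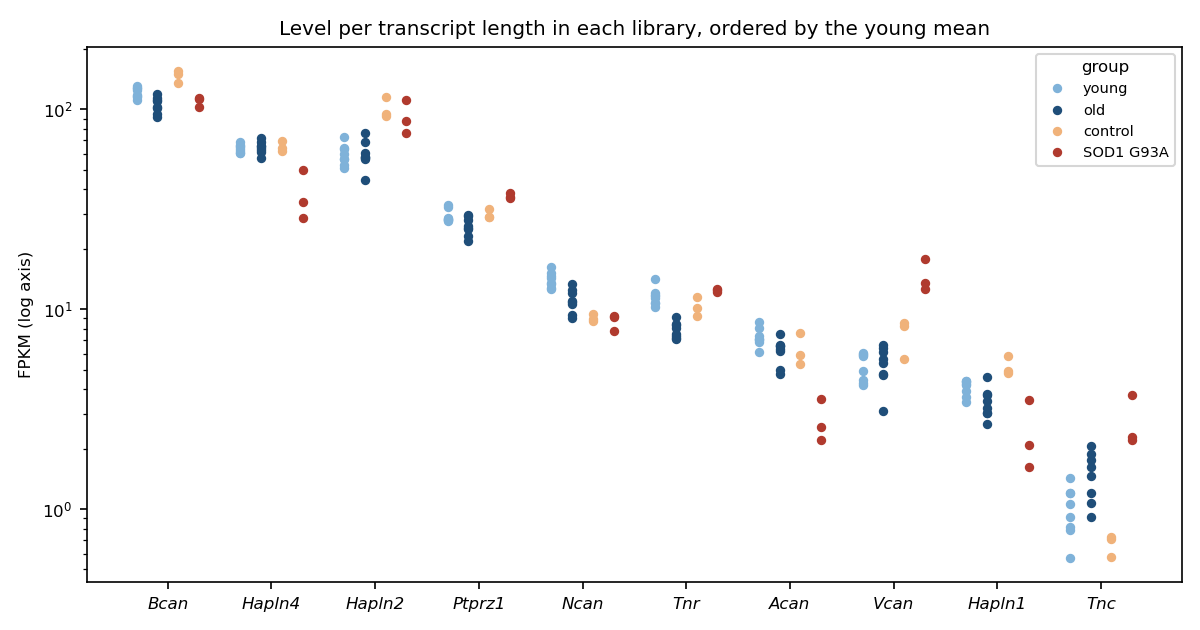
FPKM on a log axis for the 10 members, 1 point per library, coloured by group and ordered by the young mean. Bcan has the highest mean in all 4 groups, while Tnc, at the bottom in 3 groups, overlaps Acan and Hapln1 in the SOD1 G93A libraries.

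Within the lectican family, Bcan made up 82.1 ± 1.09% of the summed lectican FPKM in young mice, 82.3 ± 1.58% in old mice and 86.5 ± 1.37% in controls. In SOD1 G93A mice it made up 80.7 ± 1.8%. There the share of Vcan was 10.8 ± 2.4%, ranging from 9.25% to 13.6%, against 3.33% to 5.39% in controls. The share of Acan was 2.04 ± 0.451% in SOD1 G93A mice and 3.7 ± 0.565% in controls, with ranges that did not overlap. Between young and old mice the ranges of all 4 shares overlapped. These shares rest on the FPKM length, which for Vcan varied between libraries, and were not tested.

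All 10 members passed the filter on low counts in both comparisons. In aging, 6 of the 10 were lower in old mice at an adjusted p under 0.05 (edgeR's quasi-likelihood test, Benjamini-Hochberg adjustment over all 13647 genes tested), where 12.9% of all genes tested were lower. A single member, Tnc, was higher, though not by limma on log2(FPKM + 0.1), where 13.5% of all genes were higher by edgeR. The count of 6 ran from 4 to 7 with any 1 library left out and was 3 by limma on both FPKM scales. The median log2 fold change was -0.22 over the members and 0 over all genes tested. In the ALS comparison 4 of the 10 were lower, against 15.5% of the 14386 genes tested, and 2 of the 10 were higher, against 18.4%. The count of 2 was 1 without control library 1, control library 2, SOD1 G93A library 1 or SOD1 G93A library 3, and 3 without SOD1 G93A library 2. With a further threshold of 1 on the log2 fold change, 2 members were lower, Acan and Hapln1, where 1.2% of all genes were, and 1 was higher, Tnc, where 8.5% were. Without SOD1 G93A library 2 the lower members were 3, with Hapln4 at -1.09, and without SOD1 G93A library 1 the lower member was Acan alone, with Hapln1 at -0.95. The members' median was -0.15 and that of all genes 0. With 10 genes, 1 gene moves each of these shares by a large step. In bulk tissue, fewer cells of a type and less RNA per cell cannot be told apart. The p-values measure the spread between libraries, each from 1 mouse.

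**Figure D2:**
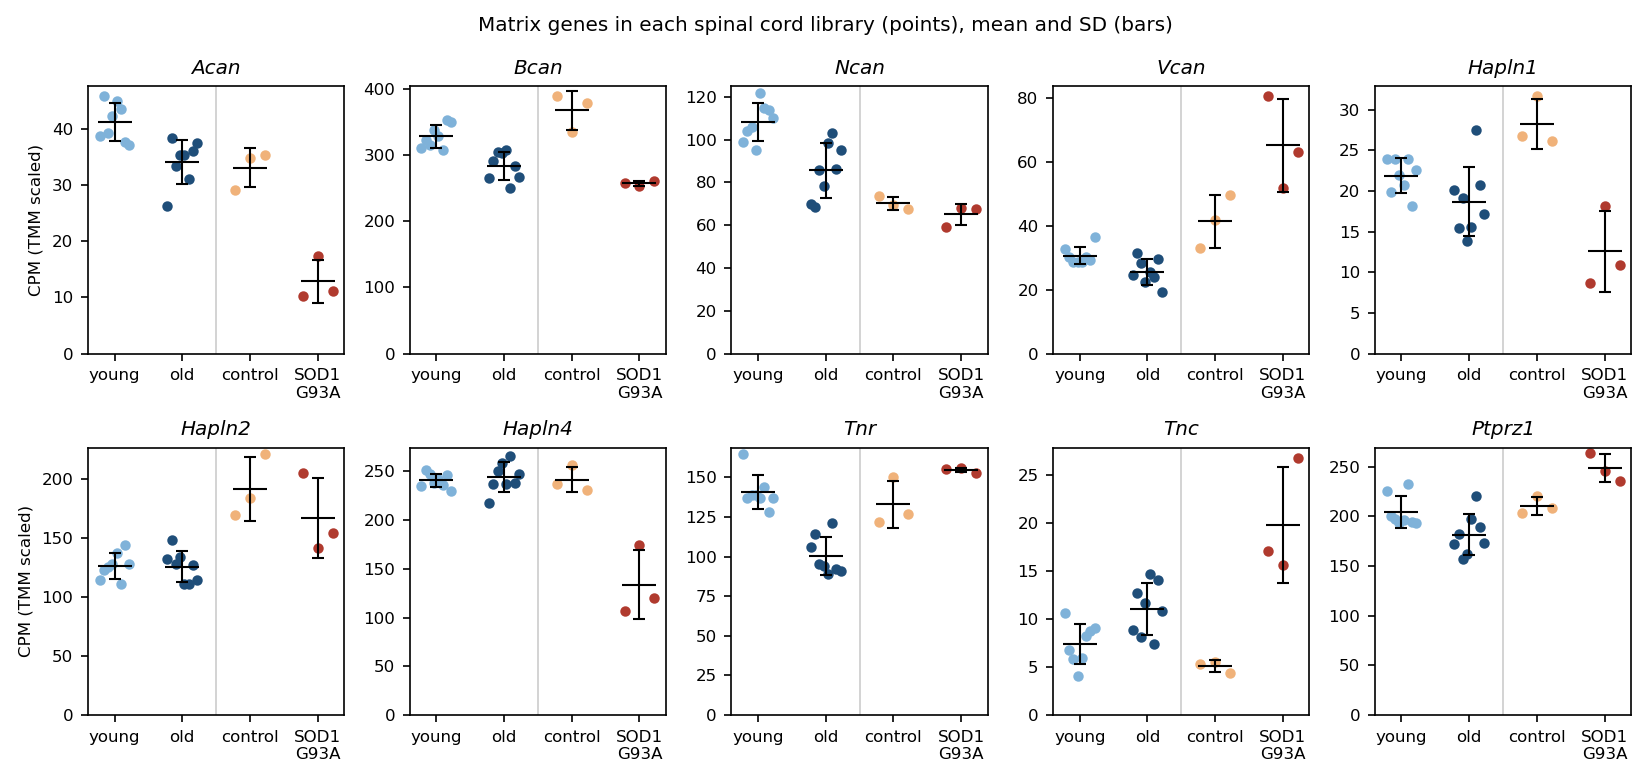
TMM-scaled CPM of each member in every library (points), with the group mean and SD (bars), for the young and old libraries (8 each) on the left of each panel and the control and SOD1 G93A libraries (3 each) on the right. Tnr and Bcan separate old from young mice. Ncan and Hapln2 overlap between SOD1 G93A and control mice, while Tnr and Ptprz1 do not overlap there but did not pass the edgeR test. The share of all genes whose groups separate was not counted, so separation is not shown to be particular to the members.

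Among the lecticans, all 4 genes were lower in old mice by edgeR on counts, though Acan and Vcan did not pass by limma on the FPKM scales, while in SOD1 G93A mice Acan and Bcan fell, Vcan rose and Ncan did not pass the test. Aggrecan (Acan) is the lectican most closely tied to perineuronal nets and is made largely by the neurons that carry them. Its lowest, median and highest values were 37.1, 40.7 and 45.8 CPM in young mice and 26.2, 35.3 and 38.4 CPM in old mice. Of the 8 old libraries 6 lay below every young library, and the groups overlapped at their edge. The log2 fold change was -0.27 ± 0.07 (SE, edgeR adjusted p = 0.00594). By limma on log2(FPKM + 1) and log2(FPKM + 0.1) it was -0.21 and -0.24 (adjusted p = 0.0966 and 0.0952). Acan stood at 29.1, 34.8 and 35.4 CPM in the 3 controls and at 10.3, 17.3 and 11.1 CPM in the 3 SOD1 G93A mice. All SOD1 G93A libraries were below all controls, library 2 being the nearest to them. This was 0.387 of the control level, a log2 fold change of -1.37 ± 0.19 (edgeR adjusted p = 0.00145), and -1.63 ± 0.14 without SOD1 G93A library 2.

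Brevican fell by less and with little scatter. Young mice ranged from 307 to 352 CPM with a median of 325, and old mice from 250 to 307 CPM with a median of 287. The groups met at about 307 CPM without crossing, and the log2 fold change was -0.21 ± 0.05 (edgeR adjusted p = 0.00212). The controls held 389, 334 and 379 CPM and the SOD1 G93A mice 258, 253 and 260 CPM. The SOD1 G93A libraries were nearly alike and all below the controls, at 0.7 of the control mean (log2 fold change -0.51 ± 0.09, edgeR adjusted p = 0.00421). Unlike Acan, Bcan was as low in SOD1 G93A library 2 as in the others.

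Neurocan (Ncan), a lectican of neurons and astrocytes that is most abundant during development, ranged from 95.3 to 122 CPM with a median of 108 in young mice. In old mice it ranged from 68.5 to 103 CPM with a median of 86.1. Again 6 old libraries lay below all young ones, at a log2 fold change of -0.34 ± 0.08 (edgeR adjusted p = 0.00163). In the other comparison, Ncan held 73.5, 69.3 and 67.8 CPM in controls and 59.2, 68.3 and 67.7 CPM in SOD1 G93A mice. The groups overlapped, and the 95% confidence interval of the log2 fold change, from -0.31 to 0.09, covers 0 (edgeR adjusted p = 0.371).

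Versican (Vcan), the largest lectican, is made in several splice forms by oligodendrocyte precursors, astrocytes, fibroblasts and other cells. It ranged from 28.7 to 36.4 CPM with a median of 29.8 in young mice, and from 19.2 to 31.6 CPM with a median of 25.1 in old mice. Most old libraries lay below the young ones, with 2 inside their range, and the log2 fold change was -0.25 ± 0.08 (edgeR adjusted p = 0.0275). The adjusted p rose to between 0.0524 and 0.0614 when young library 1, young library 8, old library 4 or old library 8 was left out, at log2 fold changes from -0.24 to -0.21, and it was 0.0748 in one fit of all 22 libraries. For SOD1 G93A, the controls held 33, 42 and 49.6 CPM and the SOD1 G93A mice 80.8, 51.8 and 63.3 CPM. All SOD1 G93A libraries were above all controls, but library 2 only narrowly. The rise was 1.57-fold (log2 fold change 0.65 ± 0.18, edgeR adjusted p = 0.0251). It lost its call, with adjusted p between 0.0654 and 0.0882, when control library 1, control library 2, SOD1 G93A library 1 or SOD1 G93A library 3 was left out, at log2 fold changes from 0.47 to 0.68.

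Vcan is also the member whose counts and FPKM diverged most. Dividing count by FPKM gives the effective transcript length that the authors' RSEM estimate used, which moves with the mix of splice forms assigned. For Vcan this length ranged from 4867 to 7799 bases in young mice and from 3324 to 6284 bases in old mice. It ranged from 4814 to 5900 bases in controls and from 3918 to 5083 bases in SOD1 G93A mice. The ratio of the longest to the shortest over all libraries was 2.35 for Vcan and at most 1.58, for Acan, among the other members. On the FPKM scale the fall of Vcan in old mice was absent, with a log2 difference of 0.02 ± 0.12 in log2(FPKM + 1) (limma adjusted p = 0.934). Which splice forms changed was not tested.

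The link proteins stabilize the bond between lecticans and hyaluronan. None of the 3 passed the test in aging by edgeR or DESeq2, and 1 of them, Hapln1, had an unadjusted edgeR p under 0.05. In SOD1 G93A mice Hapln1 and Hapln4 fell and Hapln2 did not pass the test. Hapln1, the link protein that net-bearing neurons make, ranged from 18.1 to 23.9 CPM with a median of 22.3 in young mice. In old mice it ranged from 13.9 to 27.5 CPM with a median of 18.1. The highest old value, above every young one, belonged to old library 6, and 4 old libraries lay below all young ones. The log2 fold change was -0.24 ± 0.11 (edgeR adjusted p = 0.113) with old library 6 and -0.33 ± 0.09 (adjusted p = 0.00621) without it, so that the call rested on this library. Leaving it out raised the count of members lower in old mice to 7, with 2200 of 13745 genes then called lower.

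Hapln1 stood at 26.8, 31.7 and 26.1 CPM in controls and at 8.64, 18.2 and 10.9 CPM in SOD1 G93A mice. Every SOD1 G93A library was below every control, with library 2 again the highest of its group. The level was 0.444 of the control level (log2 fold change -1.17 ± 0.24, edgeR adjusted p = 0.00735), and 0.347 without SOD1 G93A library 2. Hapln4, a link protein of neurons found around inhibitory synapses and in hindbrain nets, stood at 237, 256 and 231 CPM in controls and at 107, 174 and 120 CPM in SOD1 G93A mice. These groups did not overlap either (0.554 of control, log2 fold change -0.85 ± 0.17, edgeR adjusted p = 0.00622), and the level was 0.471 of control without SOD1 G93A library 2. In aging Hapln4 was the steadiest member, from 230 to 251 CPM in young and from 217 to 266 CPM in old mice, and its 95% interval of the log2 fold change ran from -0.07 to 0.1.

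Hapln2, made by oligodendrocytes and placed at nodes of Ranvier, ranged from 111 to 144 CPM in young and from 111 to 148 CPM in old mice. The values of the groups lay over each other, and the 95% interval of the log2 fold change ran from -0.13 to 0.12. The controls held 169, 184 and 221 CPM and the SOD1 G93A mice 205, 141 and 154 CPM, again with overlap (95% interval from -0.55 to 0.15, edgeR adjusted p = 0.349). Its neighbour Bcan fell in both comparisons.

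The tenascins are multi-armed glycoproteins that bind lecticans. Tenascin-R (Tnr), made by oligodendrocytes, their precursors and some neurons, cross-links lecticans in nets. It ranged from 128 to 165 CPM with a median of 138 in young mice and from 88.8 to 121 CPM with a median of 94.7 in old mice. No old library reached the lowest young one, and with a log2 fold change of -0.49 ± 0.06 (edgeR adjusted p = 3.75e-06) Tnr had the smallest adjusted p of the members in aging. In the ALS comparison it stood at 122, 150 and 127 CPM in controls and at 155, 156 and 153 CPM in SOD1 G93A mice. The SOD1 G93A values were nearly equal and lay just above the highest control, but the difference did not pass the test (log2 fold change 0.22 ± 0.1, edgeR adjusted p = 0.11).

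Tenascin-C (Tnc), abundant in development and made again by reactive astrocytes after injury, was the member that rose in both comparisons. It ranged from 4.08 to 10.6 CPM with a median of 7.47 in young mice and from 7.4 to 14.7 CPM with a median of 11.3 in old mice. The groups overlapped, with 5 old libraries above all young ones, and the rise was 1.48-fold (log2 fold change 0.57 ± 0.17, edgeR adjusted p = 0.0143). The adjusted p was 0.0499 by limma on log2(FPKM + 1) and 0.0558, over the threshold, on log2(FPKM + 0.1). Tnc stood at 5.31, 5.56 and 4.38 CPM in controls and at 17.1, 15.6 and 26.7 CPM in SOD1 G93A mice. All 3 SOD1 G93A libraries were far above the controls, including library 2. The rise was 3.9-fold (log2 fold change 1.96 ± 0.23, edgeR adjusted p = 0.000627). Its counts were low, between 56 and 66 in the controls and between 155 and 298 in SOD1 G93A mice.

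Ptprz1 encodes a receptor tyrosine phosphatase of glia whose secreted form, phosphacan, is a chondroitin sulfate proteoglycan that anchors aggrecan in nets. It ranged from 193 to 233 CPM with a median of 196 in young mice and from 157 to 221 CPM with a median of 177 in old mice. Of the old libraries 6 lay below all young ones, at a log2 fold change of -0.17 ± 0.06 (edgeR adjusted p = 0.0474). This call was marginal. By limma on log2(FPKM + 1) and log2(FPKM + 0.1) the log2 difference was -0.16 and -0.17, and neither passed (adjusted p = 0.0957 and 0.096). The edgeR adjusted p lay between 0.0521 and 0.109 when any of 10 single libraries was left out (young 1, 2, 3 or 6, or old 1, 2, 3, 4, 7 or 8), at log2 fold changes from -0.18 to -0.14, and it was 0.00397 without old library 6. In the ALS comparison the controls held 203, 221 and 208 CPM and the SOD1 G93A mice 264, 246 and 236 CPM. The groups did not overlap, but the log2 fold change of 0.24 ± 0.09 did not pass the edgeR test (adjusted p = 0.0618). It passed in DESeq2 (adjusted p = 0.046), with library totals in place of TMM (0.0353), in limma on both FPKM scales (0.0337 and 0.0344) and without SOD1 G93A library 2 (0.0295).

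**Figure D3:**
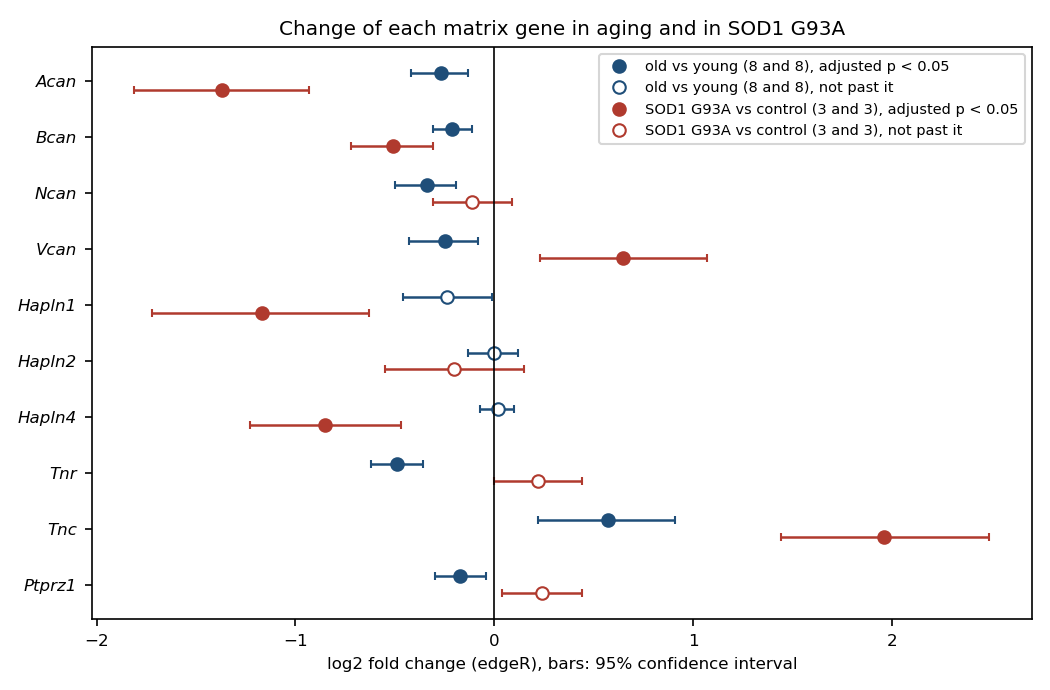
Log2 fold change of each member in aging (blue) and in the ALS comparison (red) from edgeR, with 95% confidence intervals. Filled points passed an adjusted p under 0.05, and open points did not. Vcan has filled points on opposite sides of 0 by counts (in aging not by FPKM), and Tnc lies to the right of 0 in both comparisons.

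Whether a member responded differently in the comparisons was tested as the difference of the log2 fold changes, ALS minus aging, in one edgeR fit of all 22 libraries. The comparisons share no library, and kit, age and sex differ between them. Of the 10 members 8 passed, against 25.8% of the 14502 genes tested. The difference was -1.13 ± 0.17 for Acan, -0.97 ± 0.24 for Hapln1 and -0.9 ± 0.13 for Hapln4 (edgeR adjusted p = 4.9e-05, 0.00409 and 2.57e-05), and -0.33 ± 0.09 for Bcan (adjusted p = 0.00991). These net components were thus lower in SOD1 G93A against control than in old against young mice. The difference was positive for Tnc at 1.37 ± 0.32, Vcan at 0.88 ± 0.18, Tnr at 0.68 ± 0.12 and Ptprz1 at 0.38 ± 0.12 (adjusted p = 0.00215, 0.000897, 0.000194 and 0.0159). For Ptprz1 the adjusted p was 0.0596 without SOD1 G93A library 1. Ncan and Hapln2 did not pass, at 0.2 ± 0.14 and -0.22 ± 0.15 (adjusted p = 0.304 and 0.275).

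Neighbouring genes can be set side by side. Bcan fell in both comparisons while Hapln2 passed in neither. Ncan fell in old mice where Hapln4 did not pass, and in SOD1 G93A mice Hapln4 fell where Ncan did not pass. Vcan and Hapln1 passed in opposite directions in SOD1 G93A mice, at log2 fold changes of 0.65 and -1.17. Hapln3, the neighbour of Acan, passed the filter on low counts only in the ALS comparison and stood there at a log2 fold change of -0.21 ± 0.39 (edgeR adjusted p = 0.703). The differences within pairs were not tested.

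For called members, the 3 genes with the most similar course over the libraries were found as those with the smallest root mean square difference of log2 CPM, each gene centred at its own mean. Over the 6 ALS libraries the genes closest to Acan were the neurofilament genes Nefl and Nefm, at differences of 0.057 and 0.059, and the nicotinic receptor gene Chrna7, at 0.093, while Acan's own spread on this scale was 0.735. The closest to Hapln1 were Esrrg, Scn4b and Olfm3 (0.064 to 0.077), and the closest to Hapln4 were Rph3a, Dnm3 and Ank1 (0.028 to 0.033). For Bcan they were Taf4b, Rai2 and Fam163a (0.046 to 0.047), for Vcan Arsk, Ankrd13a and Hrct1 (0.048 to 0.07), and for Tnc AA467197, Lbp and Cenpf (0.103 to 0.151). How many genes lie this close by chance was not tested.

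**Figure D4:**
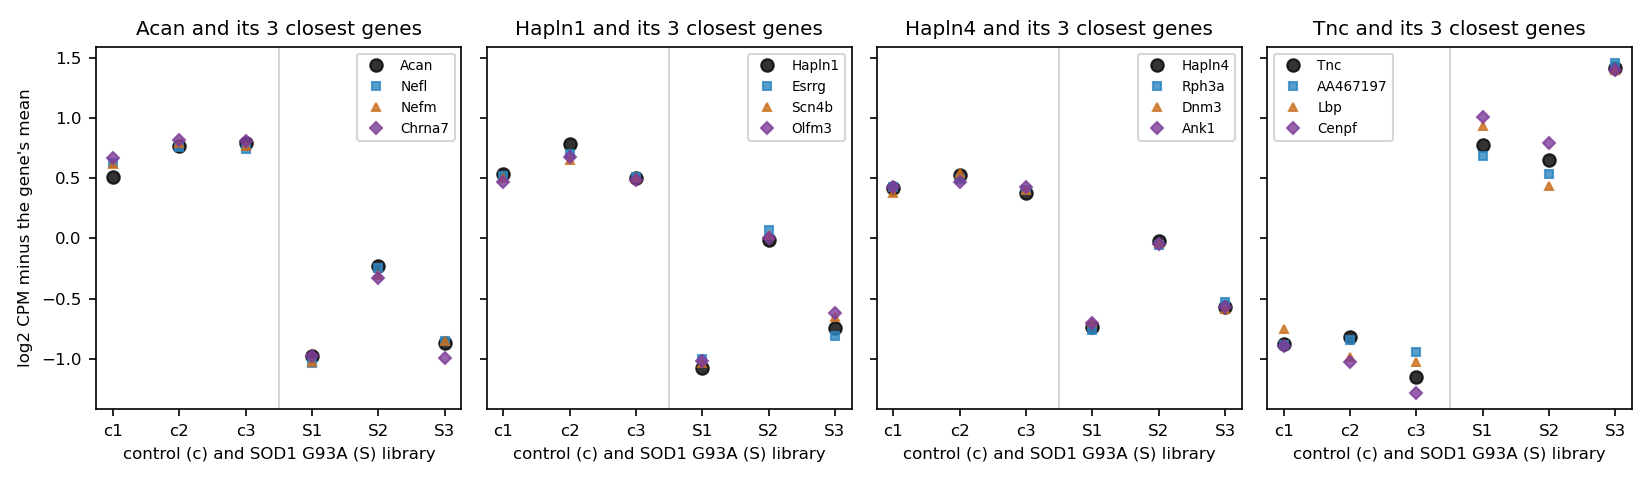
Log2 CPM minus the gene's own mean in the 3 control (c1 to c3) and 3 SOD1 G93A (S1 to S3) libraries, for Acan, Hapln1, Hapln4 and Tnc (black circles) and the 3 genes closest to each. S2 lies nearer to the controls than S1 and S3 for the genes that fell.

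Over the 16 aging libraries the closest genes were less close relative to each member's spread. They were Zbtb11, Lrp4 and Afg1l for Acan (0.076 to 0.112, own spread 0.195), and Ccp110, Zfp462 and Pds5b for Tnr (0.08 to 0.093, own spread 0.278). For Ncan they were Cdh20, Olig2 and Fut8 (0.124 to 0.129), Olig2 being one of the oligodendrocyte lineage markers listed below. For Bcan they were Gtf2i, Slc4a2 and Rap1gds1 (0.067 to 0.072), and for Vcan Fhod3, Dst and Rnf20 (0.124 to 0.128). For Tnc they were Tifa, Fn1 and Abca9 (0.265 to 0.267), which is more than for the other members named here. Closeness over 16 aging libraries and over 6 ALS libraries cannot be compared like for like, since the members' spreads differ too.

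The genes that make, modify and degrade this matrix were counted in lists, and no list was tested as a set. The counts stand against 13.5% of all genes higher and 12.9% lower in aging, and 18.4% higher and 15.5% lower in the ALS comparison. More genes were called in all without the libraries set apart, 2179 higher and 2200 lower of 13745 without old library 6, and 3476 higher and 3172 lower of 14584 without SOD1 G93A library 2, so list counts without them are to be read against those. Of 4 tested genes for hyaluronan synthesis, 1 was lower in SOD1 G93A mice, the synthase Has3, which fell from 9.45 ± 1.52 to 4.18 ± 0.751 CPM (mean ± SD, n = 3; log2 fold change -1.18 ± 0.21, edgeR adjusted p = 0.00436). When SOD1 G93A library 2 was left out, 1 gene of this list was also higher. Of the genes for hyaluronan binding and turnover, 3 of 9 tested were higher in old mice (5 of 9 without old library 6) and 6 of 11 in SOD1 G93A mice. Cd44, the main cell surface receptor for hyaluronan, stood at 27.9 ± 2.9 CPM in young and 55.9 ± 7.17 CPM in old mice (n = 8), and at 18.2 ± 5.6 CPM in control and 120 ± 31.1 CPM in SOD1 G93A mice. Neither pair of groups overlapped, with log2 fold changes of 1 ± 0.08 and 2.73 ± 0.25 (edgeR adjusted p = 2.22e-09 and 0.000228).

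Of the enzymes that build the chondroitin chain, 1 of 13 was higher in aging (B3gat3, log2 fold change 0.14 ± 0.04), and 2 were without old library 6. In SOD1 G93A mice 3 of 13 were higher and 2 lower, near the shares of all genes, with the smallest adjusted p for the nucleotide sugar transporter Slc35d1 (log2 fold change 0.62 ± 0.13, edgeR adjusted p = 0.00837). Slc35d1 kept its call with any 1 library left out, while the other 4 each lost theirs with at least 1 left out. The counts were 4 higher and 4 lower without SOD1 G93A library 2, where more of all genes were called too. Of the sulfation genes, 2 of 11 were higher and 2 lower in old mice (3 lower without old library 6). Dse, 1 of the higher genes, lost its call in 4 of 16 leave-one-out fits (largest edgeR adjusted p = 0.0641). Chst3, which sulfates chondroitin at the 6-O position, fell from 11.8 ± 1.49 to 7 ± 1.19 CPM, with no overlap between groups (log2 fold change -0.75 ± 0.11, edgeR adjusted p = 2.07e-05). In SOD1 G93A mice 3 of 12 sulfation genes were higher and 1 lower (2 lower without library 2). The lower gene, Chst15, and Dse, 1 of the higher genes, each lost their call in 4 of 6 leave-one-out fits (largest edgeR adjusted p = 0.0866 and 0.116). The sulfate donor enzyme Papss2 and the 4-O-sulfotransferase Chst11 rose there, with log2 fold changes of 1.03 ± 0.18 and 0.9 ± 0.18 (edgeR adjusted p = 0.0039 and 0.00643). Chst3 stood there at 0.14 ± 0.18 and did not pass (adjusted p = 0.577).

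Of the lysosomal enzymes that break down chondroitin sulfate, 4 of 6 were higher with age, against 13.5% of all genes, and 2 did not pass. In the ALS comparison 5 of 6 were higher, against 18.4%, and 1 was lower. The lower gene, Ids, lost its call in 3 of 6 leave-one-out fits (largest edgeR adjusted p = 0.0837). The median log2 fold changes of the 6 enzymes were 0.42 and 1.01, against 0 over all genes tested in each comparison. Gusb, a glucuronidase, rose 1.66-fold in old and 4.41-fold in SOD1 G93A mice (edgeR adjusted p = 3.52e-06 and 0.000536). Proteases that cleave lecticans or tenascins counted 2 higher and 1 lower of 11 in old mice, and 7 higher and 1 lower of 12 in SOD1 G93A mice. The lower counts became 2 and 2 without old library 6 and SOD1 G93A library 2. Cathepsin S (Ctss), a protease of microglia, rose from 79.9 ± 6.73 to 259 ± 44.5 CPM in aging and from 91 ± 4.88 to 653 ± 225 CPM in the ALS comparison. The lectican-cleaving protease Adamts4 fell in old mice (log2 fold change -0.23 ± 0.06, adjusted p = 0.0046), and the gelatinase Mmp9 fell in SOD1 G93A mice (-1.59 ± 0.25, adjusted p = 0.00269).

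Among protease inhibitors, 6 of 7 were higher with age and 7 of 7 in the ALS comparison. Timp1 stood at 0.332 ± 0.197 CPM in young mice, which is near the floor, and at 5.33 ± 1.31 CPM in old mice. It stood at 0.434 ± 0.251 CPM in controls and 31 ± 16.4 CPM in SOD1 G93A mice, and neither pair of groups overlapped (edgeR adjusted p = 1.41e-10 and 0.000282). Of the receptors and membrane partners of the members, 9 of 21 were lower in aging (10 without old library 6), where 12.9% of all genes were, 1 was higher and 11 did not pass. The higher gene, Sdc4, lost its call in 9 of 16 leave-one-out fits (largest edgeR adjusted p = 0.0724). Ptprd, a receptor phosphatase of the family that binds chondroitin sulfate, and Nfasc, an adhesion molecule of axons, fell in old mice without overlap, with log2 fold changes of -0.43 ± 0.04 and -0.29 ± 0.04 (edgeR adjusted p = 1.35e-07 and 1.54e-05). In SOD1 G93A mice 7 of 21 were higher, with the smallest adjusted p for Nrp1 (log2 fold change 0.74 ± 0.11, adjusted p = 0.00225), and 3 were lower, against 8 and 4 without SOD1 G93A library 2. The 3 lower genes, Plxna4, Ptprd and L1cam, all lost their call without control library 2, and again without SOD1 G93A library 3.

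Among other proteoglycans of nervous tissue, 4 of 20 were higher and 2 lower in old mice, and 10 of 22 were higher and 4 lower in SOD1 G93A mice. Leaving out old library 6 gave 4 higher and 4 lower of 21, and leaving out SOD1 G93A library 2 gave 13 higher and 5 lower of 22. The small leucine-rich proteoglycan Fmod rose from 9.11 ± 0.855 to 23.4 ± 3.86 CPM in aging and from 7.89 ± 0.403 to 178 ± 78.1 CPM in the ALS comparison (log2 fold changes 1.36 ± 0.1 and 4.5 ± 0.36, edgeR adjusted p = 4.63e-10 and 0.000147). Testicans, heparan and chondroitin sulfate proteoglycans made mainly by neurons, fell in SOD1 G93A mice, with log2 fold changes of -0.56 ± 0.09 for Spock1 and -0.92 ± 0.17 for Spock3 (edgeR adjusted p = 0.00292 and 0.00547). The tenascin relative Tnxb was higher in both comparisons, at 1.22 ± 0.16 and 1.1 ± 0.24 (adjusted p = 3.7e-06 and 0.00864).

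**Figure D5:**
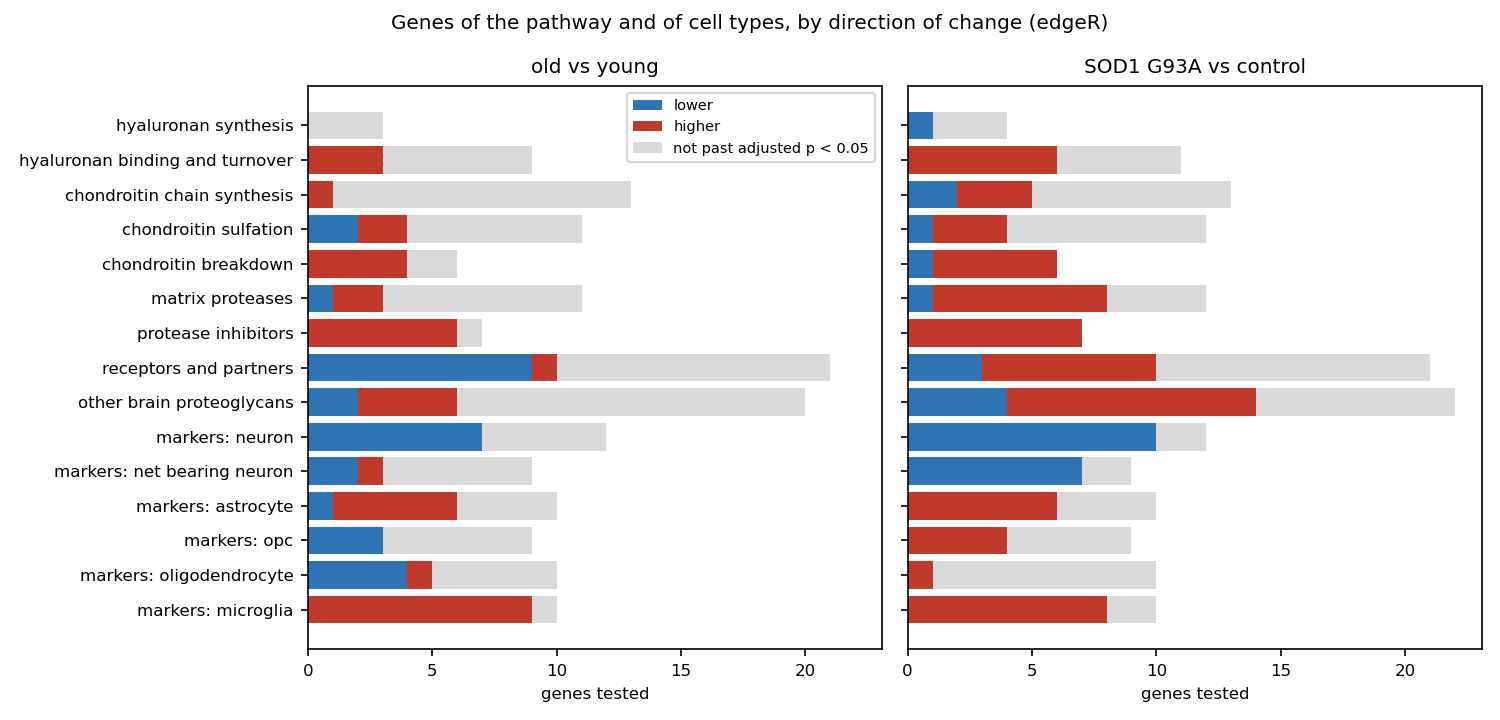
Number of tested genes of each list that were lower (blue), higher (red) or not past an adjusted p under 0.05 (grey) in each comparison by edgeR, with precursors of oligodendrocytes shown as opc. Breakdown enzymes, proteases and inhibitors are mostly red in SOD1 G93A mice, and 10 of 12 neuronal markers are blue.

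Markers of cell types moved in the same libraries, and their part in the members' changes was not tested. Of 12 neuronal markers 7 were lower with age and 10 in SOD1 G93A mice, with none at the floor. These counts were 9 without old library 6 and 12 without SOD1 G93A library 2. Their summed level was 3260, 3430 and 3360 FPKM in the controls and 1270, 2260 and 1490 FPKM in SOD1 G93A libraries 1, 2 and 3, with Snap25 the most abundant. In aging the sum ran from 2860 to 3170 FPKM in young and from 2400 to 2990 FPKM in old mice. Old library 6, where Hapln1 was highest among the old libraries, had the highest old sum. Hapln4 was also highest there, at 266 CPM. Acan, at 31 CPM in that library, lay in the lower part of the old range of 26.2 to 38.4 CPM. Library 2 of the SOD1 G93A group, where Acan, Hapln1 and Hapln4 were highest within it, also had the highest neuronal sum of its group. Of 9 markers of motor and fast-spiking neurons, which often carry nets, 7 were lower in SOD1 G93A mice. Chodl of fast motor neurons fell from 36 ± 1.22 to 4.04 ± 0.452 CPM (edgeR adjusted p = 2.62e-05). In aging 2 of these 9 were lower and 1, Pvalb, was higher.

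Glial markers moved as well. Of 10 astrocyte markers 5 were higher and 1 lower in old mice, and 6 were higher in SOD1 G93A mice, Gfap among them at a log2 fold change of 2.4 ± 0.24 (edgeR adjusted p = 0.000308). The astrocyte sum was 2850, 2590 and 2720 FPKM in controls and 6850, 4630 and 6340 FPKM in SOD1 G93A mice. Aldoc took 1030 ± 4.67 FPKM of it in controls and 1130 ± 86.9 FPKM in SOD1 G93A mice (mean ± SD, n = 3). The astrocyte sum ran from 2890 to 3350 FPKM in young and from 2970 to 3840 FPKM in old mice. Of 9 markers of oligodendrocyte precursors and their lineage 3 were lower in old mice, Gpr17, Olig1 and Olig2, and 4 were higher in SOD1 G93A mice (5 without library 2). Of those 4, Lhfpl3 and Gpr17 both lost their call without SOD1 G93A library 3. The sum of the 9 markers ran from 207 to 249 FPKM in young and from 192 to 207 FPKM in old mice, with Olig1 the most abundant, and was 245, 227 and 234 FPKM in controls and 246, 240 and 269 FPKM in SOD1 G93A mice. Of 10 oligodendrocyte markers 4 were lower (5 without old library 6) and 1 higher in old mice, with sums from 10400 to 12700 FPKM against 10500 to 13700 FPKM in young mice and with Mbp the most abundant. The higher marker, Mbp, lost its call in 8 of 16 leave-one-out fits (largest edgeR adjusted p = 0.0906). For SOD1 G93A mice 1 of these 10 was higher, and without library 2 a further 2 were lower, with sums from 11400 to 12800 FPKM against 11600 to 13400 FPKM in controls. Of 10 microglial markers 9 were higher in old and 8 in SOD1 G93A mice (9 without library 2), with C1qa at 38.7 ± 2.4 FPKM in controls and 479 ± 205 FPKM in SOD1 G93A mice. Their sum ran from 150 to 179 FPKM in young and from 260 to 545 FPKM in old mice, and was 189, 177 and 164 FPKM in controls and 1570, 805 and 1270 FPKM in SOD1 G93A mice. Of 6 endothelial markers 2 were lower in old mice, and their median log2 fold change in SOD1 G93A mice was -0.23. Fibroblast markers had a median of -0.03 in aging, and 2 of 7 were higher in SOD1 G93A mice. Schwann cell markers were higher in 1 of 2 cases in aging and 1 of 3 in SOD1 G93A mice, and ependymal markers in 1 of 4 and 3 of 4. The 5 blood markers had medians of 0.32 and -0.02. Without SOD1 G93A library 2, 1 endothelial marker was lower, and 3 of 7 fibroblast, 2 of 3 Schwann cell and 4 of 5 ependymal markers were higher. Other leave-outs removed calls in the ALS comparison. From the fibroblast list Pdgfrb lost its call in 5 of 6 leave-one-out fits, and from the Schwann cell list Pmp22 did in 4. The ependymal markers Foxj1 and Ccdc153 did in 5 and 4. The fibroblast median in aging was 0.07 without old library 6. No marker of these cell types was at or under 3 counts in every library.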

How the data were processed

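RNA of whole spinal cord from 22 mice in 4 groups was analysed. The authors aligned the reads with STAR to mm10 and deposited RSEM expected counts per gene, not scaled between libraries. The authors deposited a second table of log2(FPKM + 1), which was turned back to FPKM. In it 304 values were above 0 where the count was 0. Expected counts were rounded. Each comparison was fitted alone in edgeR 4.0.16 (R 4.3.3) with filterByExpr (minimum count 10, minimum total 15), TMM scaling, and quasi-likelihood p-values adjusted by Benjamini-Hochberg. Symbols and positions came from GENCODE M21, which held 21919 of the 21995 identifiers. The smallest chi-square per degree of freedom between libraries of a group was 2.52, so no pair within a group matched within counting error alone. The test was checked on simulated counts. Alternatives were DESeq2 1.42.0, other scaling, no filter, a pooled fit, limma 3.58.1 on FPKM, and leave-one-out. Named genes are the members, at most 3 per list and direction with the smallest adjusted p, the most abundant marker of a list and the 3 closest genes. Members and lists were chosen with earlier results of these data known. Other genes are named only as neighbours of a member. Intervals are 95%.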

Additional observations from a re-analysis of the deposited data

Results flagged for a closer look

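In the young group, Tnr stood at 165 CPM in library 1, while the nearest young library held 144 CPM. That gap was 0.553 of the group's range, above the limit for the highest of 8 values. It was the single such gap among 20 groups of values tested (10 members in young and in old mice), and chance alone gives about 1 in 20. Without that library the log2 fold change of Tnr in aging was -0.45, still at an edgeR adjusted p under 0.05.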

How the results depend on the processing

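No paired analysis was possible because the columns carry no replicate numbers. In aging, limma on log2(FPKM + 1) and log2(FPKM + 0.1) called 2290 and 2287 genes (964 and 961 lower) against 3600 (1761 lower) by edgeR, and 3 members lower on both scales against 6. By limma on log2(FPKM + 0.1), 0 members were higher (Tnc, adjusted p = 0.0558), against 1, Tnc, at an unadjusted p under 0.05 and 1 by edgeR. Acan (adjusted p = 0.0966 and 0.0952) and Ptprz1 (0.0957 and 0.096) lost their call there, and Vcan turned to 0.02 on both scales. Genes beyond a log2 fold change of 1 numbered 488 in DESeq2, 536 without a filter, 456 in the pooled fit and 128 on log2(FPKM + 1), against 303. In the ALS comparison, limma on the FPKM scales called 1297 and 1290 genes lower against 2236, and 883 genes beyond 1 on log2(FPKM + 1) against 1395. The cause was not tested. All 7 alternatives other than leaving out a library kept 4 members lower there.

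Leaving out 1 library gave 3109 to 4379 genes called in aging (1477 to 2200 lower, 1632 to 2179 higher, 295 to 342 beyond 1), with 4 to 7 members lower and 1 higher. In the ALS comparison it gave 2353 genes (without SOD1 G93A library 3) to 6648 (without library 2) against 4877, and 2725 and 3195 without control library 2 or 3, with 715 to 3172 lower, 1638 to 3476 higher and 1087 to 1971 beyond 1, 4 members lower and 1 to 3 higher, with fewer samples in each fit. In the test of the difference, where the 6 ALS libraries and no aging library were left out in turn, it gave 7 or 8 members. Hapln2 in aging, just under 0 with all libraries, ranged from -0.04 to 0.02 and turned to 0.01 and 0.02 without young library 5 or 7 and to 0.02, 0.02 and 0.01 without old library 5, 6 or 8, all within 1 SE of 0. Of the list genes named by the rule, 7 of 51 in aging and 16 of 59 in ALS lost their call under at least 1 alternative, and none changed direction. Depth limits Tnc most, at 21 counts in the lowest library. Of 40 levels, 21 moved by more than their SD between FPKM and CPM per kilobase of exon.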
